A study of Mus musculus with 4 samples.

Results

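The nuclear-encoded respiratory chain genes were followed here in sorted embryonic mouse cells at E13.5 and E14.5. Members were the genes whose symbols start with Nduf, Sdha to Sdhd, Uqcr, Cox4 to Cox8 or Atp5, without pseudogenes and without Cox6a2, and whose Ensembl ID stood in the gene lists of both tissues. This gave 96 genes of the 27566 IDs shared by the fetal liver list of 31053 and the periphery list of 28427 genes. By symbol they comprise 38 subunits and 8 assembly factors of complex I, 4 subunits and 4 assembly factors of complex II, 8 subunits of complex III, 17 genes of complex IV, 15 of complex V and 2 other genes with an Atp5 symbol, Atp5s and Atp5sl. Ndufa4, also known as a subunit of complex IV, and its relative Ndufa4l2 are thus counted with complex I throughout. A second Atp5o ID of the fetal liver list and a second Uqcrc1 ID of the periphery list were not shared and stayed out.

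The cells were live CD45+ F4/80- IL7Ra+ cells of C57BL/6J embryos, sorted after magnetic enrichment of CD45+ cells, in a study of lymphoid tissue inducer (LTi) cells. The 4 groups were fetal liver at E13.5, fetal liver at E14.5, embryonic periphery at E13.5 and embryonic periphery at E14.5, with no genetic change or treatment named in the labels. Each group was 1 library, and the number of embryos pooled in it is not given in the sources used here, so stages were compared within a tissue with no replicate check and no test. Fetal liver was prepared with version 3 and periphery with version 2 of the 10x Chromium 3' kit, so that kit, gene list and tissue cannot be told apart.

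The respiratory chain passes electrons from NADH (complex I) and succinate (complex II) through ubiquinone, complex III and cytochrome c to oxygen at complex IV. Complexes I, III and IV pump protons, and complex V, the ATP synthase, uses the proton gradient to make ATP. Each complex except II combines subunits encoded in the nucleus with subunits encoded by mitochondrial DNA (mtDNA). Lymphoid progenitors rely on oxidative phosphorylation together with glycolysis, and the balance between them is known to shift with proliferation and differentiation.

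After filtering, 9773 and 10892 fetal liver cells and 4166 and 4325 periphery cells remained at E13.5 and E14.5, with median depths between 8457 and 18193 unique molecular identifiers (UMIs, each marking 1 captured RNA molecule) per cell. Ptprc, which encodes CD45, stood between 62.1 and 143 counts per 1000000 UMIs (CPM) and Il7r between 150.6 and 397 CPM in the 4 libraries. Of the hepatocyte genes looked at, Alb stayed at or below 0.110 CPM, while Afp was between 1.44 and 2.99 CPM. The F4/80 gene Adgre1 was between 2.05 and 8.66 CPM. The stages of fetal liver shared 24 cell barcodes and those of periphery 25, and no other pair of libraries shared more than 1.

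Members together took up a slightly larger share of all UMIs at E14.5 than at E13.5 in both tissues. In fetal liver the E13.5 share was 2.697% (95% exact binomial interval 2.695 to 2.700), and the E14.5 share was 2.810% (2.807 to 2.812). In periphery it was 3.532% (3.527 to 3.537) and 3.832% (3.826 to 3.837). Such intervals, and the exact Poisson intervals given for CPM, cover counting error only and not the spread between embryos. Per cell, the median share was 2.67 and 2.80% in fetal liver and 3.501 and 3.80% in periphery. The interquartile ranges of cells overlapped between stages, at 2.48 to 2.85 and 2.55 to 3.002% in fetal liver and 3.18 to 3.82 and 3.48 to 4.12% in periphery. In periphery the total itself changed in make-up, since cytosolic ribosomal protein genes held 28.9% of UMIs at E13.5 and 23.4% at E14.5. With ribosomal, mitochondrial-genome and haemoglobin genes out of the total, the periphery share was 5.16% at E13.5 and 5.21% at E14.5.

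For single genes, the fold is the log2 ratio of E14.5 over E13.5 on CPM + 5, minus the median of all genes measured in that tissue. That median was -0.03 in fetal liver and 0.23 in periphery before it was subtracted, so a periphery gene with a fold of 0 had a higher CPM at E14.5. Genes with at least 10 CPM at 1 of the stages or both were taken as measured, and a gene as risen or fallen at a fold of 0.5 or more in size. In each tissue 89 of the 96 members were measured, 87 of them in both. UMIs count RNA molecules at their 3' end, so CPM is not scaled by length.

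In fetal liver the members moved little and mostly in 1 direction. The median fold was 0.10, and 68 of 89 measured members were higher at E14.5, beside a median of 0.00 over all 7746 measured genes. Ndufs5 was the 1 member that rose and 0 members fell, against 3.52% of all measured genes that rose and 2.84% that fell. Other lists were also mostly higher at E14.5: 57 of 77 cytosolic ribosomal protein genes (median fold 0.08), 13 of 14 S phase genes (0.18), 9 of 13 G2 and M phase genes (0.04), 17 of 22 mitochondrial import genes (0.12) and 7 of 10 stress, handling and RNA quality genes (0.23). Their part in the member folds was not tested. The plot of folds by complex shows this narrow spread and the wider one of periphery.

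**Figure D1:**
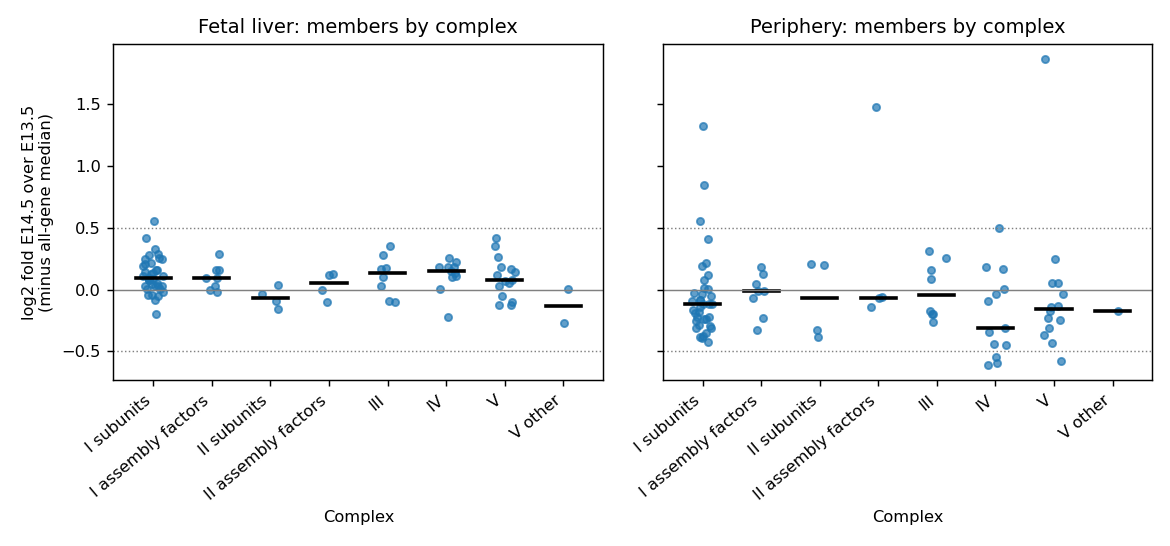
Fold of each measured member (points, log2 E14.5 over E13.5 minus the all-gene median) by complex in fetal liver and periphery, with the median of each group as a bar and dotted lines at 0.5 and -0.5. Fetal liver points lie between -0.27 and 0.56, and periphery points between -0.61 and 1.86.

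Complex I, which oxidises NADH, differed between its parts in fetal liver. Of its accessory subunits, which surround the catalytic core, 28 of 30 measured were higher at E14.5, with a median fold of 0.13 (Ndufa4 counted with them by its symbol). Of the 7 core subunits encoded in the nucleus, which carry the flavin and the iron-sulfur clusters, 3 were higher, with a median of -0.04. Ndufv1, the flavin- and NADH-binding subunit, had 144 CPM at E13.5 and 123 CPM at E14.5, a fold of -0.19. Ndufs5, an accessory subunit, had 196 CPM (194 to 198) and 285 CPM (282 to 287), a fold of 0.56. Ndufa1, an accessory subunit needed for assembly of the complex, had 71.2 and 94.5 CPM, a fold of 0.41.

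The call for Ndufs5 did not hold once the cell composition was fixed. With the cluster shares of E14.5 set to those of E13.5, its fold was 0.16. B-like cells made up 3.94% of fetal liver cells at E13.5 and 37.9% at E14.5, and Ndufs5 stood higher in them, at 287 and 379 CPM, than in all cells together. In the 9 classes compared, its fold lay between 0.11 in stem or multipotent-like cells and 0.42 in B-like cells.

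The other complexes in fetal liver showed the same small sizes. Complex IV, cytochrome c oxidase, was higher for 10 of 11 measured members, with a median fold of 0.15. The exception was Cox7a2l, with 336 CPM at E13.5 and 281 CPM at E14.5, a fold of -0.22. It is known as a factor that joins complexes III and IV into supercomplexes, a role not examined in these C57BL/6J cells. Complex III was higher for 6 of 8, with a median of 0.13. Uqcrq, a small subunit of complex III, had 282 and 354 CPM, a fold of 0.35. The 2 lower members of complex III were the large core proteins Uqcrc1 and Uqcrc2, at -0.09 and -0.10.

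Complex V was higher for 11 of 15 members, with a median of 0.08. Its small subunits Atp5k, part of the membrane sector, and Atp5e, the epsilon subunit of the catalytic sector, had folds of 0.42 and 0.36. Atp5k went from 59.4 CPM (58.3 to 60.6) to 79.4 CPM (78.2 to 80.7), and Atp5e from 392 to 493 CPM. The catalytic-sector subunits Atp5a1, Atp5b and Atp5c1 (alpha, beta and gamma) had folds of -0.13, -0.10 and -0.13. Atp5sl, one of the genes grouped outside the complexes, had the lowest fold of all measured members, -0.27, at 38.3 and 30.2 CPM.

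Complex II, succinate dehydrogenase, is the complex with no mtDNA-encoded subunit and is also an enzyme of the tricarboxylic acid (TCA) cycle. In fetal liver 1 of its 4 subunits was higher at E14.5 and the median fold was -0.06. Sdha, the flavoprotein, had 152 CPM at E13.5 and 133 CPM at E14.5, a fold of -0.16. Sdhb, the iron-sulfur subunit, had 350 and 353 CPM, a fold of 0.04. The membrane anchors Sdhc and Sdhd had folds of -0.10 and -0.03, and that of Sdhc was 0.05 with the cluster shares fixed. Of 13 other TCA cycle genes, 10 were lower, with a median of -0.13.

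Folds in fetal liver were ordered by coding length. Over the 89 measured members the correlation of the fold with the log2 coding length was r = -0.70 (Spearman rho = -0.74), a description over genes that share the same libraries. Of 46 measured members with at most 150 residues, 43 were higher, with a median fold of 0.17. Of 13 members with over 300 and up to 600 residues, 3 were higher, with a median of -0.05. All measured genes showed the same order with smaller sizes, with a median of 0.11 for 641 genes of at most 150 residues and -0.01 for 2926 genes of over 300 and up to 600 residues. When folds were instead set against the median of genes of at most 150 residues, the member median was -0.02 and 0 members rose, so that the Ndufs5 call ended there too.

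**Figure D2:**
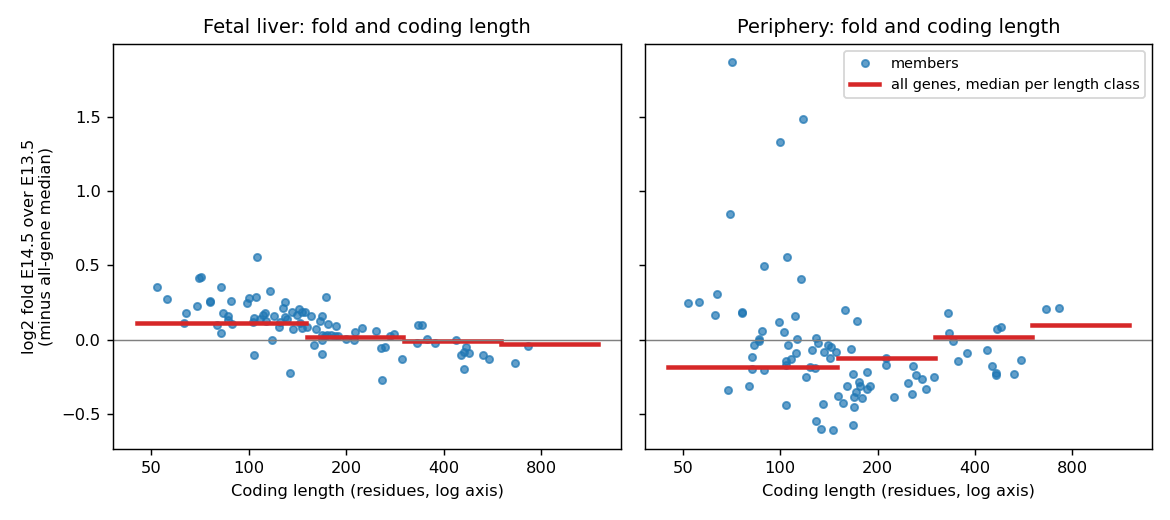
Fold of each measured member (points) against its coding length in residues on a log axis, with the median of all measured genes in 4 length classes as bars. In fetal liver the shortest members lie highest, with a median of 0.17 up to 150 residues, while in periphery the 5 members that rose all have at most 150 residues.

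In periphery the members spread far more widely, with 5 that rose and 4 that fell. Atp5k, Sdhaf1, Ndufa3, Ndufa1 and Ndufb2 rose, and Cox5a, Cox7a2l, Atp5d and Cox5b fell. These counts stand beside 7.66% of all 7241 measured genes that rose and 8.49% that fell, so that 5 and 4 of 89 members, 5.62 and 4.49%, are no larger shares than in the background. The median fold was -0.12 and 28 of 89 measured members were higher. That direction and the falls depend on the scaling. Without subtracting the all-gene median, the member median was 0.11, 59 of 89 were higher, 8 rose and 0 fell. With folds set against genes of at most 150 residues, 7 rose and 0 fell, and with ribosomal, mitochondrial-genome and haemoglobin genes out of the total, 8 rose and 0 fell. Without the subtraction the median of all measured genes was itself 0.23. The shares of all genes that rose or fell were not counted under these scalings, and 7.66 and 8.49% hold for the centred folds only.

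The members that rose in periphery have small products from different complexes. Atp5k (ENSMUSG00000050856, chr5:108433244-108434448, minus strand) had 97.1 CPM (94.4 to 99.9) at E13.5 and 430 CPM (424 to 436) at E14.5, a fold of 1.86. Sdhaf1, an assembly factor for the iron-sulfur subunit of complex II, had 14 CPM (12.99 to 15.1) and 57.1 CPM (54.8 to 59.4), a fold of 1.48. Ndufa3, an accessory subunit of complex I, had 170 CPM (166 to 173) and 509 CPM (502 to 516), a fold of 1.33. The intervals of the 2 stages were far apart for each of these genes, but they cover counting error only and not the spread between embryos. In fetal liver Ndufa3 had 92.4 and 111 CPM, a fold of 0.28, and Sdhaf1 had 40.2 and 39.1 CPM, a fold of -0.01.

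Ndufa1 had 364 CPM (358 to 369) in periphery at E13.5 and 770 CPM (761 to 778) at E14.5, a fold of 0.84. Ndufb2, another accessory subunit of complex I, had 123 CPM (120 to 126) and 214 CPM (210 to 219), a fold of 0.55. In fetal liver it had 66.0 and 79.6 CPM, a fold of 0.28. With the cluster shares fixed, the folds of Ndufa3, Sdhaf1 and Ndufa1 in periphery were 1.21, 1.20 and 0.69. Many periphery clusters hold few cells of one of the stages, which limits this setting. Cluster 0, with 832 cells at E13.5, is read there from 16 cells at E14.5. Cluster 15, with 12 cells at E13.5 and 1283 at E14.5, counts for little in it.

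The DNA before the start of Atp5k, Ndufa3, Ndufa1 and Ndufb2 is shown because these genes rose in periphery, along with that of Ndufs5, the riser of fetal liver. Sdhaf1 is not shown, since GENCODE starts it well upstream of RefSeq and the bases before the RefSeq start lie inside its annotated span. The sequences are the 150 bases upstream of the RefSeq start on GRCm38.p6, 5' to 3' on the gene's strand, with matches to the motifs below in capitals. They lie at chr5:108434400-108434549 (minus) for Atp5k, chr4:123718187-123718336 (minus) for Ndufs5, chr7:3617223-3617372 (plus) for Ndufa3, chrX:37191239-37191388 (minus) for Ndufa1 and chr6:39592415-39592564 (plus) for Ndufb2. Counted upstream from the RefSeq start, the outermost start in GENCODE M21 lies at 49 bases for Atp5k, 16 for Ndufs5, 0 for Ndufa3, -9 for Ndufb2 and -75 for Ndufa1, where a negative value is downstream.
Atp5k: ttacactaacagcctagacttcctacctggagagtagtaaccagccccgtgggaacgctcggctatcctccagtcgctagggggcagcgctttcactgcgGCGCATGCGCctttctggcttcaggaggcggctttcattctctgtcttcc
Ndufs5: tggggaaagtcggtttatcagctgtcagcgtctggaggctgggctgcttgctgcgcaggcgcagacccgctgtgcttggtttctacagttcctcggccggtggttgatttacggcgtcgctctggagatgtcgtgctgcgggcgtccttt
Ndufa3: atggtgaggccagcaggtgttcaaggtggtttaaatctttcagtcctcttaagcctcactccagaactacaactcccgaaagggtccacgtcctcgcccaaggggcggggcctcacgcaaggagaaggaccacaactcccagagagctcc
Ndufa1: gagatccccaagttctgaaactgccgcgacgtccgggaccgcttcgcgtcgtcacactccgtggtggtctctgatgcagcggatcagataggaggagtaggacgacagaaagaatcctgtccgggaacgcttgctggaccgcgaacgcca
Ndufb2: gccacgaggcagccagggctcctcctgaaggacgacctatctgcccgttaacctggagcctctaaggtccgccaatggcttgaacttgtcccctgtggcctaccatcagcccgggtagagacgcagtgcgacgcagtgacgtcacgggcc
Motifs of factors known to act on respiratory chain genes were searched on both strands in the 250 bases before the start, for the 78 of 96 members that matched the table by symbol. The NRF1 motif CATGCGC was found for 11 of 78 members (14.1%) and 3.68% of 27025 genes in the table. The ETS motif CCGGAAG, bound by GABP, was found for 16 members (20.5%) and 7.83% of genes. The YY1 motif ATGGCGG was found for 6 members (7.69%) and 2.58% of genes, and the ERR motif AAGGTCA for 5 members (6.41%) and 4.70% of genes. No motif is contained in another. Among the sequences shown, Atp5k holds the NRF1 letters, once on each strand in overlap, and the others hold none of these motifs within the bases printed. All but the outermost of the marked Atp5k bases lie within the 49 bases that GENCODE M21 places inside the gene. They are thus upstream of the RefSeq start but not of the GENCODE start. Further upstream, Ndufa1 holds the YY1 letters and Ndufb2 and Ndufs5 the ERR letters. A match here is a description of the letters, not of a bound site.

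The 4 members that fell in periphery did so relative to the all-gene median. Cox5a, a subunit of complex IV, had 1039 CPM (1030 to 1048) at E13.5 and 796 CPM (787 to 805) at E14.5, a fold of -0.61. Cox7a2l had 545 CPM (538 to 551) and 420 CPM (414 to 426), a fold of -0.60. Cox5b, another subunit of complex IV, had 548 CPM (542 to 555) and 438 CPM (432 to 444), a fold of -0.55. Atp5d, the delta subunit of the catalytic sector of complex V, had 753 CPM (746 to 761) and 591 CPM (584 to 598), a fold of -0.57. Before the all-gene median was subtracted, the log2 ratios of Cox5a, Cox7a2l, Cox5b and Atp5d were -0.38, -0.37, -0.32 and -0.35, none of which reaches 0.5 in size. In fetal liver Cox5a had 925 and 1029 CPM, Cox5b 304 and 332 CPM and Atp5d 586 and 586 CPM.

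**Figure D3:**
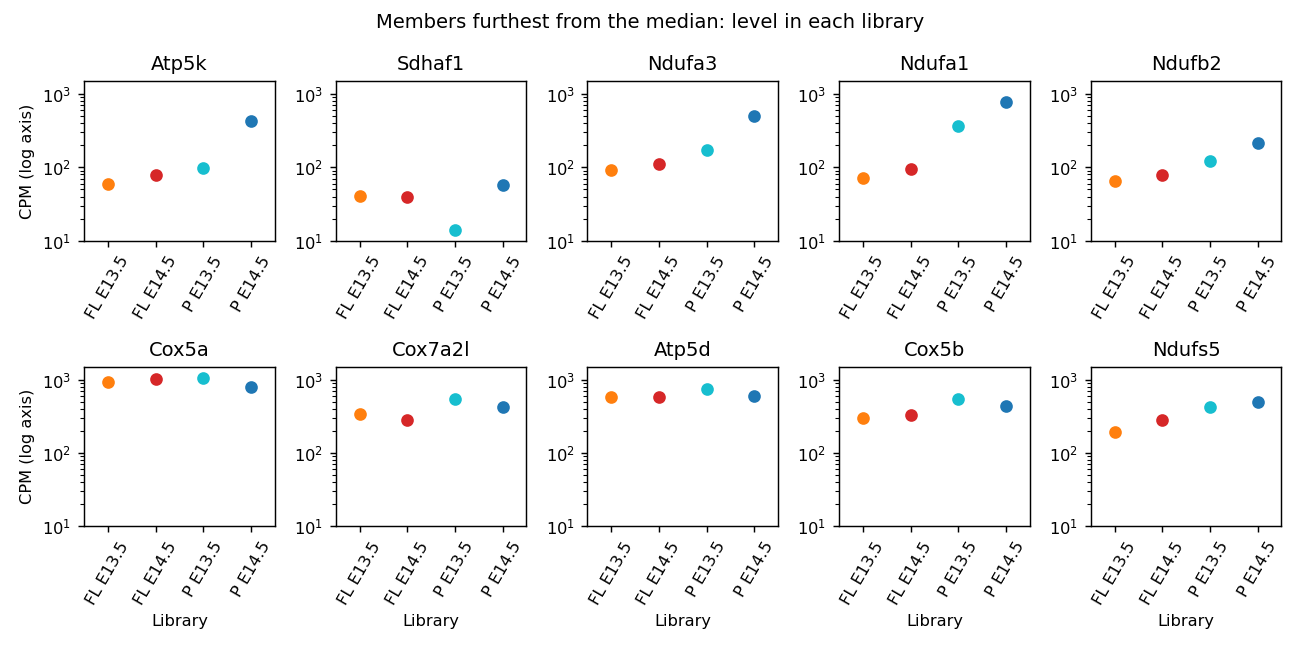
Level in CPM (log axis) of the 9 members that rose or fell in periphery and of Ndufs5, in each of the 4 libraries (FL, fetal liver, and P, periphery), with 95% Poisson intervals that are mostly smaller than the points. Atp5k stands at 97.1 CPM in periphery at E13.5 and 430 CPM at E14.5, against 59.4 and 79.4 CPM in fetal liver.

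By complex, complex IV stood lowest in periphery, with 9 of 13 measured members lower and a median fold of -0.31. The medians were -0.12 for complex I subunits, -0.06 for complex II subunits, -0.04 for complex III and -0.15 for complex V. Without subtracting the all-gene median, those of complexes I, II, III and V were 0.11, 0.16, 0.18 and 0.07, while that of complex IV was -0.08. Of the 7 core subunits of complex I, 6 were lower, and of 30 measured accessory subunits 21 were lower. In complex II, Sdha had 166 and 226 CPM and Sdhd 152 and 207 CPM, with folds of 0.21 and 0.20. Sdhb had 361 and 335 CPM and Sdhc 147 and 132 CPM, with folds of -0.33 and -0.38.

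In periphery the correlation of the member fold with coding length was r = -0.26 (rho = -0.32) over 89 members, and the length classes showed no single order. Members of at most 150 residues had a median fold of -0.04, with 20 of 47 higher, and those of over 150 and up to 300 residues a median of -0.31, with 2 of 27 higher. The 13 members of over 300 and up to 600 residues had a median of -0.09, and the 2 longer ones 0.21. All measured genes ran the other way, with medians of -0.18, -0.12, 0.02 and 0.10 from the shortest to the longest class. The 5 members that rose are all in the shortest class. Transcript length, taken from the transcript with the longest coding sequence, gave another picture. Of 9 measured members with transcripts of up to 500 bases 3 rose, and of 11 over 2000 bases 2 rose. Of all 66 measured genes of up to 500 bases, 13 rose and 10 fell (19.7 and 15.2%), with a median of 0.08. Of all 4589 over 2000 bases, 8.02% rose and 4.42% fell.

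Other genes of at most 150 residues moved in periphery too, in both directions. Of 672 measured, 58 rose and 121 fell, and without members and cytosolic ribosomal proteins 44 rose and 100 fell of 591. Of 76 measured cytosolic ribosomal protein genes of any length, 11 rose and 51 fell, with folds between -2.29 and 2.66. Cox17, a copper chaperone for complex IV that lies outside the member rule, rose from 56.5 to 212 CPM, a fold of 1.59. Stress and immediate-early genes also moved: Hspa1a had 53.0 CPM at E13.5 and 0.741 CPM at E14.5, and Jun had 187 and 592 CPM. Of the 11 measured genes of that list, 3 rose and 3 fell. The part of these in the folds of the members was not tested.

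Between tissues, 46 of the 87 members measured in both were higher at E14.5 in fetal liver and lower in periphery, 20 were higher in both, 14 lower in both and 7 lower in fetal liver and higher in periphery. Because the all-gene median was larger in periphery, these counts rest on its subtraction. None of the 87 passed 0.5 in opposite directions, but Ndufs5 alone passed 0.5 in fetal liver, so that this count could not have exceeded 1. The member folds of the tissues had r = 0.38 (rho = 0.36) over 87 genes, beside r = 0.18 (rho = 0.15) over 6578 genes measured in both, as a description.

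Within classes of cells named from marker genes and called X-like, the risers of periphery were higher at E14.5 in every class with at least 50 cells at both stages. These were B-like, ILC progenitor-like, LTi-like, mast or basophil-like and monocyte or macrophage-like cells. The fold of Atp5k lay between 1.57 and 2.01 in these 5 classes, that of Ndufa3 between 1.08 and 1.34, and that of Sdhaf1 between 0.70 and 1.43. Ndufb2 lay between 0.48 and 0.81. Ndufa1 lay between 0.25 and 0.67, and its fold in LTi-like cells was the lowest, at 677 CPM at E13.5 and 947 CPM at E14.5. It stood higher in LTi-like cells than in the other 4 classes at both stages, and LTi-like cells made up 33.6% of periphery cells at E13.5 and 73.4% at E14.5.

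The labels call the sorted cells LTi cells, although the gate itself holds no marker of them alone. In periphery 1398 cells at E13.5 and 3173 at E14.5 had this name, mostly from clusters 0 and 8 at E13.5 and from clusters 15, 16 and 9 at E14.5. The member share was 3.74% (3.73 to 3.75) and 3.87% (3.87 to 3.88) of their UMIs. In them 3 members rose and 4 fell, beside 5.89% of all measured genes in each direction. Atp5k had 111 and 426 CPM, Ndufa3 199 and 554 CPM, and Sdhaf1 18.9 and 70.2 CPM. Cox5a had 1039 and 756 CPM, a fold of -0.68.

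In fetal liver LTi-like cells were fewer, 394 and 219, with a member share of 2.63% (2.61 to 2.64) and 2.78% (2.76 to 2.80). Among their members 1 rose and 0 fell, beside 5.80 and 4.66% of all measured genes. The one that rose was Ndufa1, with 112 CPM (103 to 121) at E13.5 and 263 CPM (243 to 285) at E14.5, a fold of 1.17. Among the other 8 fetal liver classes the fold of Ndufa1 lay between 0.24 and 0.61. Atp5k lay between 0.10 and 0.57 in the 9 classes.

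**Figure D4:**
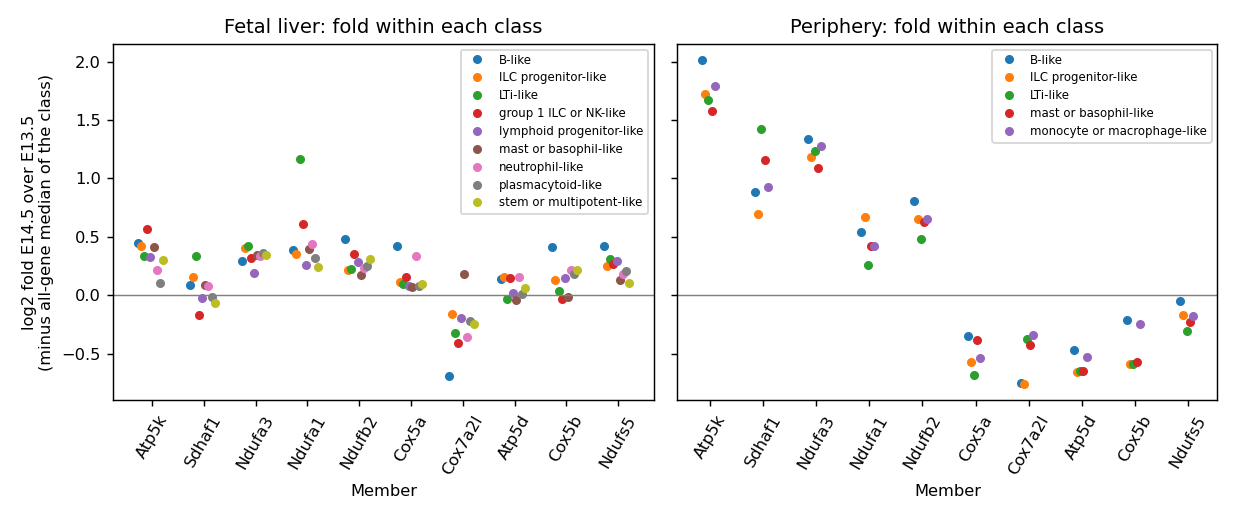
Fold of 10 named members within each cell class with at least 50 cells at both stages (one colour per class), in fetal liver and periphery. In periphery Atp5k lies between 1.57 and 2.01 in all 5 classes, and in fetal liver Ndufa1 stands at 1.17 in LTi-like cells.

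B-like cells of fetal liver had the highest median fold of the 9 classes, 0.26, with 79 of 89 members higher. Within its single clusters the median was smaller, 0.14 in cluster 9, where 1 member rose and 0 fell, and 0.21 in cluster 12. In cluster 12, with 108 cells at E13.5 and 1568 at E14.5, 10 members rose and 2 fell. The shares of all genes that rose or fell were not counted for single clusters, so these cluster counts cannot be set beside a background. The member share of all B-like cells together was 2.45% (2.43 to 2.46) in the E13.5 library and 2.85% (2.85 to 2.86) in the E14.5 library. In the whole class 8 members rose and 1 fell, beside 4.28 and 8.15% of all measured genes. When the members themselves took part in the clustering, 4 rose and 1 fell in the 145 and 3414 cells then called B-like. The shares of all genes were not counted for that clustering either. With members left out of the clustering, Ndufa5, an accessory subunit of complex I, had 65.1 and 118 CPM, a fold of 0.84, and Uqcrq had 246 and 395 CPM, a fold of 0.70. Cox7a2l fell from 443 to 267 CPM, a fold of -0.70. The class held 385 cells at E13.5, mostly from cluster 9, and 4126 at E14.5, mostly from clusters 12 and 14, which lead with pre-B genes such as Igll1 and Vpreb1.

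The other fetal liver classes had median folds between 0.01 in mast or basophil-like and 0.18 in neutrophil-like cells. In periphery the class medians lay between -0.21 in LTi-like and 0.00 in B-like cells. The monocyte or macrophage-like class of periphery had a median depth of 12469 UMIs per cell at E13.5 and 1366 at E14.5. Mast or basophil-like cells had the lowest member share of the classes compared in both tissues, 2.22 and 2.20% in fetal liver and 2.91 and 2.85% in periphery, with intervals that overlapped between stages in both tissues (2.201 to 2.247 and 2.191 to 2.211%, and 2.873 to 2.939 and 2.813 to 2.881%).

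**Figure D5:**
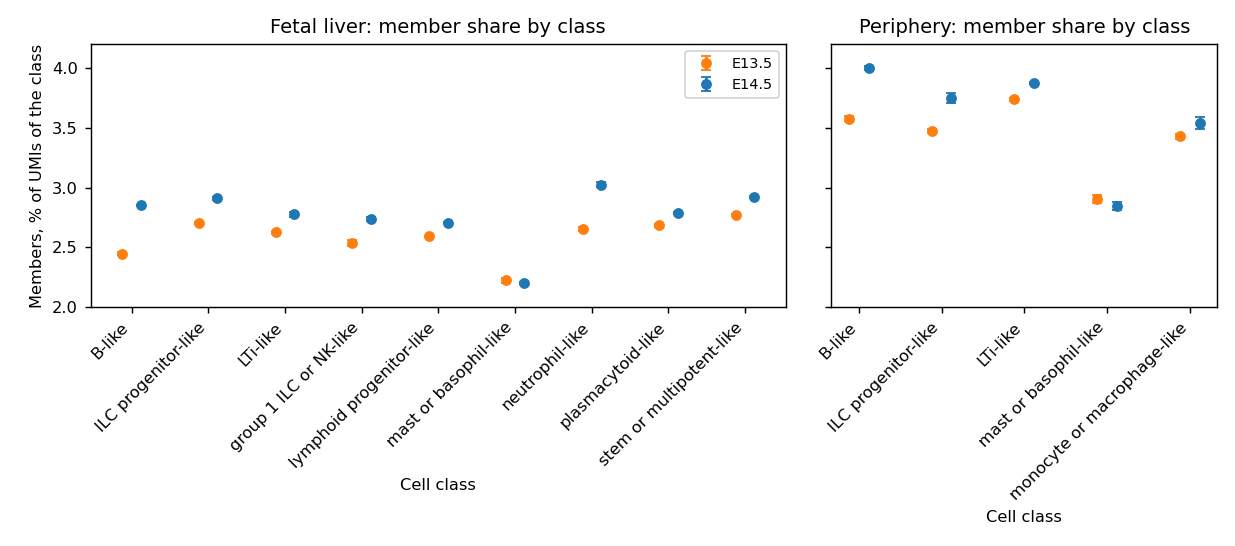
Share of UMIs taken by the members (vertical axis from 2%) in each cell class with at least 50 cells at both stages, at E13.5 and E14.5, with 95% exact binomial intervals. The mast or basophil-like class lies lowest in both tissues, at 2.22 and 2.20% in fetal liver.

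Several members exist as isoforms that replace each other between tissues. The widely expressed forms carried nearly all of the UMIs. Cox4i1 had 1048 and 1026 CPM in fetal liver and 1398 and 1196 CPM in periphery, a fold of 0.00 and -0.45, while Cox4i2, the form known from lung and low oxygen, had 8.66, 2.94, 2.69 and 1.79 CPM in the 4 libraries. Cox7a2 was between 334 and 663 CPM and Cox7a1, the heart and muscle form, between 1.48 and 13.7 CPM. Cox6b1 was between 374 and 849 CPM and the testis form Cox6b2 between 9.16 and 15.6 CPM. Cox6a1 was between 283 and 919 CPM. Ndufa4, named for complex I and also known as a subunit of complex IV, was between 940.3 and 1015 CPM, and Ndufa4l2, a hypoxia-responsive relative, had at most 0.0989 CPM.

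Cox8a was between 781 and 1174 CPM. No UMI of Cox8b or Cox8c was counted in any library, and a count of 0 allows up to 0.0163, 0.0165, 0.0593 and 0.0717 CPM (3 UMIs of each library's total). The Atp5g genes encode the same mature c subunit of the complex V rotor. Atp5g1 had 613 and 682 CPM in fetal liver and 666 and 577 CPM in periphery, and Atp5g3 had 438, 482, 509 and 583 CPM in that order. Atp5g2 had the most UMIs of any member in fetal liver, 1125 and 1161 CPM, but 4.71 and 9.97 CPM in periphery. Tissue, kit version and gene list cannot be told apart for this difference.

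The 5 members with the most UMIs in fetal liver were Atp5g2, Cox4i1, Ndufa4, Atp5b and Cox5a at E13.5, with Cox8a in place of Atp5b at E14.5. In periphery they were Cox4i1, Atp5b, Cox8a, Cox5a and Ndufa4 at E13.5, with Cox6c in place of Cox5a at E14.5. The leading 5 held 18.5 and 18.02% of member UMIs in fetal liver and 16.7 and 14.9% in periphery.

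The respiratory chain genes of mtDNA did not move with the nuclear genes in fetal liver. They held 5.05% of UMIs at E13.5 and 3.89% at E14.5, so that the ratio of nuclear to mtDNA-encoded UMIs was 0.534 and 0.723. Of 12 measured mtDNA genes, 9 were lower, with a median fold of -0.34. mt-Co3 had 13518 and 10104 CPM, a fold of -0.39, and mt-Atp6 had 5232 and 3786 CPM, a fold of -0.44. mt-Co1, mt-Co2, mt-Cytb, mt-Nd1, mt-Nd2, mt-Nd3 and mt-Nd4 lay between -0.40 and -0.21. mt-Nd5 and mt-Nd6 had folds of 0.14 and 0.21, and mt-Nd4l rose from 181 to 341 CPM, a fold of 0.93. Cells above a mitochondrial share of 10% had been left out in all libraries.

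In periphery mtDNA genes held 2.64 and 3.03% of UMIs, and the ratio was 1.34 and 1.26. Of 12 measured, 6 were higher and the median fold was 0.03. mt-Nd3 rose from 89.0 to 262 CPM, a fold of 1.28, and the others lay between -0.25 and 0.27. mt-Atp8 in fetal liver and mt-Nd6 in periphery were below 10 CPM.

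Among the other genes around the chain, mitochondrial ribosomal proteins, which translate the mtDNA-encoded subunits, were higher for 57 of 77 in fetal liver (median 0.06) and lower for 65 of 76 in periphery (median -0.24). Of 9 electron carriers and exchangers, 6 were lower in periphery, where Slc25a3, the phosphate carrier, fell from 871 to 625 CPM, a fold of -0.70. Cycs, cytochrome c itself, had 162 and 270 CPM there, a fold of 0.49. Of 20 measured assembly genes of complexes III and IV outside the rule, 11 were higher in fetal liver and 6 in periphery.

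Of 13 regulators listed, 11 were measured in fetal liver, with 0 past 0.5, and 8 in periphery. Nrf1, a transcription factor of respiratory chain genes, had 44.1 and 47.0 CPM in fetal liver and 26.9 and 37.9 CPM in periphery, with folds of 0.11 and 0.20. Yy1 and Myc passed 0.5 in periphery, at 12.1 and 26.4 CPM with a fold of 0.65 and at 19.2 and 35.7 CPM with a fold of 0.52. Ppargc1a, the coactivator known for inducing mitochondrial biogenesis in muscle and brown fat, had between 0.167 and 0.424 CPM in the 4 libraries. Tfam, which packages mtDNA and acts in the start of its transcription, had 77.7 and 73.3 CPM in fetal liver and 74.4 and 83.0 CPM in periphery.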

How the data were processed

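The deposited matrices hold raw UMI counts per gene and barcode, made by the authors with Cell Ranger version 3 on mm10 per the submitters' processing notes, and with 3.0.0 (fetal liver) or 3.0.1 (periphery) per the file headers. The gene model release is not given in the sources used here. The filter on barcodes asked for 500 genes and allowed 10% of UMIs from mtDNA. Doublets scored with Scrublet in scanpy 1.11.5 (expected rate 0.8% per 1000 barcodes) were left out. Scrublet's own cut served for E14.5 fetal liver, the library in which it took between 0.5 and 15% of barcodes, and the expected rate set the cut in the other 3.

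Counts were summed over kept cells and divided by the total, with exact Poisson intervals. Members were left out of the 2000 variable genes used for clustering (30 components, 15 neighbours, Leiden resolution 1, seed 1). A cluster got the name of a marker set where at least 3 and over 50% of the markers were detected, and the naming rule was adjusted after the data had been seen, so class differences may come from rebuilt names. Coding lengths and positions are from GENCODE M21 on GRCm38, used in place of a planned RefSeq protein length. Simulated counts with 200 changed genes were recovered within 0.1 log2 for 100% of them in fetal liver, run on 7568 genes, and 99.5% in periphery, run on 6820 genes.

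The members and lists were chosen with earlier results of these data known. Named genes were the 5 highest and 5 lowest folds per tissue, the 5 with most UMIs per library, isoform sets, complex II, the mtDNA genes and regulators. Genes named outside this rule, such as Cox17, Hspa1a, Jun, Slc25a3, Cycs and Ndufa5, were chosen after their values were seen. Motif letters were settled after a first search with longer forms. Factors of edgeR 4.0.16 and DESeq2 1.42.0 served as scaling alternatives.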

Additional observations from a re-analysis of the deposited data

How the results depend on the processing

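No paired analysis was possible because each group is 1 library, and no library could be left out. The fetal liver member median fold of 0.10 was 0.079 with 20 CPM added, 0.064 without a filter on low values, 0.076 with a minimum of 50 CPM, 0.067 without centring, 0.055 with a total free of ribosomal, mitochondrial and haemoglobin genes, and -0.015 when centred on genes of at most 150 residues. The periphery median of -0.12 was -0.15 with 1 CPM added, -0.052 with 20 CPM added, -0.060 with a minimum of 50 CPM and -0.16 with DESeq2 size factors, and turned to 0.072 without the filter, 0.11 without centring, 0.0041 with the reduced total and 0.064 when centred on short genes. The reduced total for shares and the centring on short genes were chosen after seeing the data.

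The E14.5 over E13.5 ratio of the summed share, 1.04 in fetal liver, was 1.04 with equal weight per cell, with stricter limits (1000 genes, 5% mitochondrial UMIs), with doublets kept, with all barcodes and with cells thinned to 3000 UMIs, 1.05 with fixed cluster shares and 1.03 with the reduced total. In periphery, 1.08, it was 1.08 with equal weight per cell, 1.07 with fixed cluster shares and 1.01 with the reduced total. Thinning left out between 127 and 402 cells per library.

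Without centring, complex medians in fetal liver were 0.059 (I subunits), -0.095 (II subunits), 0.10 (III), 0.12 (IV) and 0.045 (V), and in periphery 0.11 (I subunits), 0.22 (I assembly factors), 0.16 (II subunits), 0.16 (II assembly factors), 0.18 (III), -0.085 (IV) and 0.073 (V). With equal weight per cell complex IV was 0.14 in fetal liver and -0.28 in periphery, and complex V -0.18 in periphery. With 1 CPM added, complexes III, IV and V of periphery were -0.076, -0.35 and -0.19. Under the other clusterings the medians of 14 classes moved by less than the counting error of a single gene at the median member level. That limit is wide for a median over many members. The fetal liver group 1 ILC or NK-like median, 0.095, was 0.145 at resolution 2. The fetal liver LTi-like class of resolution 2 held 34 cells at E13.5, under the minimum of 50, and gave no value. Seed 2 gave 2 members that rose in that class in place of 1. Cox6b1 in periphery, 0.0044, was -0.028 with 1 CPM added and -0.027 with fixed cluster shares, and Sdhc in fetal liver was 0.049 with fixed cluster shares. The causes of these shifts were not tested. The Ndufs5 call in fetal liver ended with fixed cluster shares, at 0.16, and when centred on short genes, where 0 members rose. In periphery the 4 falls became 0 without the filter (9 rose), without centring, with the reduced total and when centred on short genes, 2 with 20 CPM added or a minimum of 50 CPM, and 6 with thinned cells. The shares of all genes that rose or fell were not counted under these settings.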
